A study of Mus musculus with 12 samples.

Results

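ON bipolar cells are the retinal interneurons that depolarise when light is switched on, and 10 genes of their glutamate signalling cascade and marker set were followed here through cell pools picked from the injured mouse retina. The genes were taken by name from a table of 54232 genes: Trpm1, Grm6, Gpr179, Nyx, Lrit3, Rgs11, Gng13, Pcp2, Prkca and Cabp5. All 10 were found in the table, and 9 of them passed the filter on low counts and entered the tests (Lrit3 did not). Polyadenylated RNA came from 12 libraries of adult male wild-type mice whose optic nerve had been crushed, an injury that cuts the axons of retinal ganglion cells. Every eye had also received an AAV2 vector in the vitreous, carrying either green fluorescent protein (GFP, the control) or Olig1, which encodes a helix-loop-helix regulator of oligodendrocyte development. Each vector was sampled 7 and 14 days after the crush in 3 libraries, and the labels give 14 days since the virus for all 12. The groups are named here by vector and day, as in GFP day 7. There was no group without crush and none without virus, and the promoter of the vectors is not given in the sources used here. Each library is a pool of some 10 to 20 fluorescent cells, picked after enrichment with CD90.2 beads and labelled as retinal ganglion cells. Nothing in the labels ties the 3 libraries of a group to 3 different animals, and the p-values therefore rest on a spread between libraries that may be technical.

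In the dark, photoreceptors release glutamate onto the dendrites of ON bipolar cells, where the metabotropic receptor encoded by Grm6 activates the G protein Go and keeps the cation channel TRPM1 closed. Light lowers the glutamate, the G protein is switched off, and TRPM1 opens. Nyctalopin (Nyx) and LRIT3 are leucine-rich repeat proteins needed to place the channel at the dendritic tip, GPR179 is an orphan receptor that anchors the regulators of G protein signalling there, and loss of several of these genes causes congenital stationary night blindness. Pcp2, Prkca and Cabp5 are not part of the core cascade and serve as markers, Prkca and Pcp2 mainly of rod bipolar cells and Cabp5 of rod bipolar and some cone bipolar cells.

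The genome upstream of these genes was read because their transcripts moved in part together. Of the 10 genes, 9 had an entry among the RefSeq promoter windows (GRCm38.p6, 250 bases before to 50 after each start) and Rgs11 had none, which gave 14 windows in all. The motif TAATCC, the core bound by the photoreceptor and bipolar homeodomain factors Crx and Otx2, was present on either strand in 7.06% of all 32851 windows, in 1 of the 2 windows of Trpm1 and in the window of Cabp5. TAATTA, a core bound by many homeodomain factors, was in 5.29% of all windows and in a window of Pcp2. CANNTG, the E-box of basic helix-loop-helix factors, was in 72.31% of all windows and in a window of 8 of these 9 genes, Cabp5 being the exception. The stretches below are the strand of the gene from 180 to 24 bases before the start, with TAATCC or TAATTA on either strand in capitals. They are shown because Trpm1 and Cabp5 are the genes of the set that passed a test, and Grm6 is the receptor whose level went a different way from Trpm1 in single libraries. A match describes letters only, and no binding was measured.
Trpm1, chr7:64153655-64153811 (+): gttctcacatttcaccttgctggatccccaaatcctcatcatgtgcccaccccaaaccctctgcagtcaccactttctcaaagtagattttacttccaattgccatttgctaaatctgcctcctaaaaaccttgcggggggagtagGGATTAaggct
Cabp5, chr7:13397975-13398131 (+): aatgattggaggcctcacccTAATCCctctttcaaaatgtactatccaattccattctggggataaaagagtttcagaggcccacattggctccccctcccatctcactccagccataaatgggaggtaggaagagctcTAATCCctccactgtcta
Grm6, chr11:50850505-50850661 (+): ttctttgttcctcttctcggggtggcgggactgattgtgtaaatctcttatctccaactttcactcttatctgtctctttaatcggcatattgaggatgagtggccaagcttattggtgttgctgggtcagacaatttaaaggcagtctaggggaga
The Trpm1 stretch, which belongs to the first of its 2 starts, held 1 match of TAATCC, read on the opposite strand, Cabp5 held 2, and the Grm6 stretch held neither motif.

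Library totals ran from 12.5 to 27.6 in units of 1000000 counts, so that 3 counts, the limit that a count of 0 allows, were worth 0.109 to 0.239 CPM (counts scaled to a library total of 1000000). Such limits cover counting error only. The number of genes with a count ran from 10129 in GFP day 14 replicate 1 to 17244 in Olig1 day 7 replicate 3. The next lowest was 14123 in GFP day 7 replicate 1, so GFP day 14 replicate 1 stood apart. Olig1 itself, which checks the labels, lay between 0 and 0.351 CPM in the 6 GFP libraries and between 56.4 and 1029 CPM in the 6 Olig1 libraries. The pools were mixed. Ganglion cell markers (14 genes) summed to 70.1 to 311 CPM with GFP and 163 to 4739 CPM with Olig1, with 2 to 8 of the 14 at 0 in every library and Pou4f3, a transcription factor of ganglion cells, at 0 in all 12. Müller glia markers (11 genes) summed to 58217 to 145805 CPM with GFP and 46927 to 130486 CPM with Olig1, and Apoe made up more than 57% of each sum. In such pools fewer cells of a type and less RNA per cell cannot be told apart. Microglia markers (12 genes) exceeded 1000 CPM in 4 libraries (GFP day 7 replicate 3, Olig1 day 7 replicate 3 and GFP day 14 replicates 2 and 3) and were at most 50.4 CPM in the other 8.

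As a sum, the ON bipolar transcripts were higher in every GFP pool than in any Olig1 pool, which did not hold for each gene. By CPM, Trpm1 led the sum in the GFP day 7 libraries and Pcp2 in the GFP day 14 libraries, at 31.04% to 36.25% of it. The 10 genes together summed to between 1241 and 5457 CPM with GFP (median 1746) and between 135 and 433 CPM with Olig1 (median 207), so the arms did not overlap. Over these libraries 8 of the 10 genes had counts in all 12, while Nyx was at 0 in 3 libraries and Lrit3 in 9. The heat map of CPM by gene and library shows the 2 GFP blocks as bright columns and the 2 Olig1 blocks as dark ones. Exceptions are Nyx and Lrit3, which are low in all blocks, and single bright cells for Grm6 and Prkca among the Olig1 pools.

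**Figure D1:**
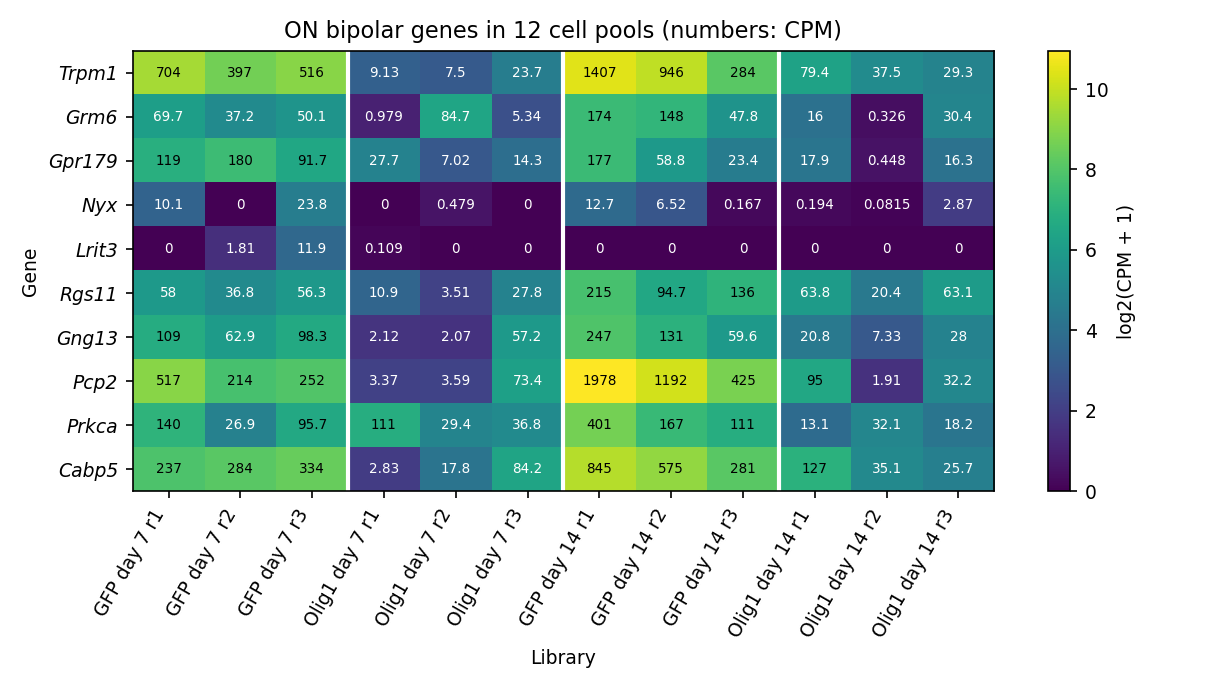
CPM of the 10 ON bipolar genes (rows) in the 12 libraries (columns, in 4 groups of 3 parted by white lines), with colour on a log2(CPM + 1) scale and the CPM printed in each cell. Trpm1 runs from 284 to 1407 CPM in the GFP columns and from 7.50 to 79.4 in the Olig1 columns, while Grm6 in Olig1 day 7 replicate 2 stands at 84.7.

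Trpm1 (ENSMUSG00000030523, chromosome 7, 64153835 to 64269775, plus strand, GRCm38), the channel at the end of the cascade, stood at 704, 397 and 516 CPM in the GFP day 7 libraries and at 9.13, 7.50 and 23.7 CPM in the Olig1 day 7 libraries. The values at day 14 were 1407, 946 and 284 CPM with GFP and 79.4, 37.5 and 29.3 CPM with Olig1. All 6 Olig1 libraries thus lay below all 6 GFP libraries, and the highest Olig1 value was under the lowest GFP value by more than 3-fold. The order of the group means was GFP day 14 (879 ± 564 CPM, SD, n = 3), GFP day 7 (539 ± 155), Olig1 day 14 (48.7 ± 26.9) and Olig1 day 7 (13.5 ± 8.93). The 2 GFP groups overlapped, and the 2 Olig1 groups did not. Of the 14985 genes tested, Trpm1 had the smallest p at day 7 (log2 fold change -5.19 ± 0.66 SE, edgeR adjusted p = 0.0113) and the third smallest at day 14 (-4.08 ± 0.63, adjusted p = 0.0335). Over the mean of both days it again ranked first, with -4.63 ± 0.45 (adjusted p = 0.000261). The day 7 call held in all 15 alternative analyses (adjusted p 3.15e-11 to 0.0487) and the call over both days in all 21 (2.61e-18 to 0.0044). At day 14 the call was lost in 8 of 16 alternatives, in a range of 2.79e-07 to 0.499, including those without GFP replicate 1 (0.126) or 2 (0.113) and without Olig1 replicate 2 (0.389) or 3 (0.217), while the log2 fold change stayed between -4.68 and -3.68.

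Among the 9 tested genes Trpm1 was the 1 gene called at each day (adjusted p under 0.05), where 0.0868% of all genes were called lower at day 7 and 0.02% at day 14. All 9 log2 fold changes were below 0 at each day and over both days, as were 50.7%, 46.1% and 48.1% of those of all genes. The median of the 9 was -2.94 at day 7, -2.93 at day 14 and -2.89 over both days, beside medians of -0.03, 0.09 and 0.06 for all genes tested. Cabp5 joined Trpm1 in passing the test over both days, where 0.274% of all genes were called lower. At day 7, 6 of the 9 genes had all 3 Olig1 libraries below all 3 GFP libraries (Trpm1, Gpr179, Rgs11, Gng13, Pcp2 and Cabp5), against 9.01% of all genes. At day 14 these 6 were joined by Grm6 and Prkca, against 4.12% of all genes. Separation at both days held for the same 6 genes and for 0.901% of all genes. In 4 genes (Trpm1, Gng13, Pcp2 and Cabp5) all 6 Olig1 libraries lay below all 6 GFP libraries, which held for 0.507% of all genes. A gene of the set that passed the filter only through its GFP libraries had to differ, so these counts describe the tested genes and are no test of the set.

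**Figure D2:**
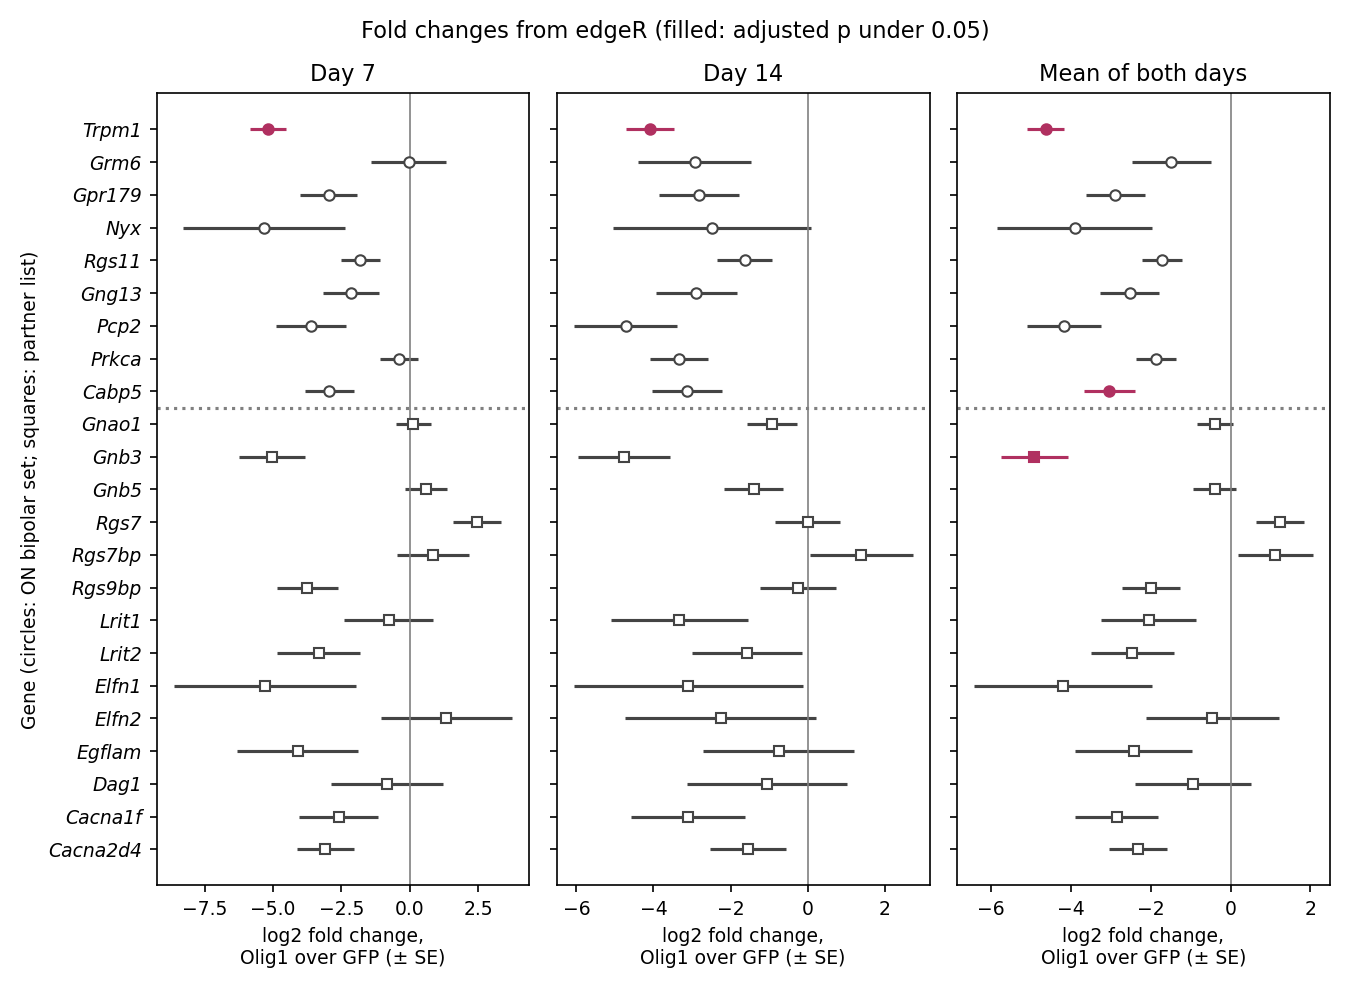
Log2 fold change of Olig1 over GFP with its SE (horizontal axis, separate scale per panel) for the 9 tested ON bipolar genes (circles) and 14 partner genes of the synapse (squares) at day 7, at day 14 and averaged over the days, with filled symbols for adjusted p under 0.05. Trpm1 is filled in all 3 panels, and Cabp5 and Gnb3 in the panel for both days.

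The receptor did not follow the channel in every pool. Grm6 (ENSMUSG00000000617, chromosome 11, 50850685 to 50866208, plus strand), the metabotropic glutamate receptor that starts the cascade, stood at 69.7, 37.2 and 50.1 CPM with GFP at day 7 and at 0.979, 84.7 and 5.34 CPM with Olig1. Olig1 day 7 replicate 2 therefore held more Grm6 than any GFP day 7 library, while its Trpm1 level, 7.50 CPM, was the lowest of all 12. At day 14 Grm6 stood at 174, 148 and 47.8 CPM with GFP and at 16.0, 0.326 and 30.4 CPM with Olig1, without overlap, and the value of 0.326 rests on 8 counts. The log2 fold change was -0.04 ± 1.36 at day 7 (edgeR adjusted p = 0.999) and -2.93 ± 1.47 at day 14 (adjusted p = 0.522), and over both days -1.48 ± 0.99 (adjusted p = 0.520). None of the 3 passed the test. The day 7 value turned with the choice of libraries and of scaling, being -4.13 without Olig1 replicate 2 and between 0.11 and 0.53 in 7 of the 15 alternatives. The difference between the 2 days was -2.89 ± 1.97 (adjusted p = 0.675) and became 1.20 without that library.

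Per transcript length the same contrast appears as a ratio. TPM divides counts by the union length of all annotated exons (14746 bases for Trpm1, 5421 for Grm6) and scales each library to 1000000. On that scale Trpm1 was 2.18 to 3.93 times as abundant as Grm6 in the 6 GFP libraries, a span of 1.80-fold. The size of these ratios, unlike their span, depends on the annotated lengths. In the Olig1 libraries the ratio was 3.43, 0.0325 and 1.63 at day 7 and 1.83, 42.3 and 0.353 at day 14. The ratio thus kept within 1.80-fold among GFP pools and scattered on both sides of that range among Olig1 pools. Several of the underlying counts are small, such as 8 of Grm6 behind 42.3. The ratio of 0.353 rests on 550 counts of Trpm1 and 572 of Grm6. The ratio of Trpm1 to Cabp5 spanned 2.95-fold among GFP pools and 11.5-fold among Olig1 pools, and that to Pcp2 3.07-fold and 60.6-fold. No test was made of these differences in spread.

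None of the genes for the proteins that hold the channel complex together passed the test. Gpr179 (ENSMUSG00000070337, chromosome 11, 97332109 to 97352077, minus strand), the anchor of the G protein regulators, stood at 119, 180 and 91.7 CPM with GFP at day 7 and at 27.7, 7.02 and 14.3 CPM with Olig1. Day 14 libraries held 177, 58.8 and 23.4 CPM with GFP and 17.9, 0.448 and 16.3 CPM with Olig1. The arms did not overlap on either day, though at day 14 the gap between the lowest GFP and the highest Olig1 library was small. The log2 fold change was -2.96 ± 1.04 at day 7 (edgeR adjusted p = 0.266), -2.81 ± 1.04 at day 14 (adjusted p = 0.438) and -2.89 ± 0.74 over both days (adjusted p = 0.0916).

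Nyx (ENSMUSG00000051228, chromosome X, 13466110 to 13489313, plus strand), which encodes nyctalopin, stood at 10.1, 0 and 23.8 CPM with GFP at day 7 and at 0, 0.479 and 0 CPM with Olig1. By day 14 the levels were 12.7, 6.52 and 0.167 CPM with GFP and 0.194, 0.0815 and 2.87 CPM with Olig1, and the arms overlapped on both days. Its log2 fold changes of -5.33 ± 2.96 at day 7 and -2.48 ± 2.57 at day 14 did not pass the test (edgeR adjusted p = 0.441 and 0.948). Lrit3 (ENSMUSG00000093865, chromosome 3, 129787881 to 129804030, minus strand) encodes the other leucine-rich repeat protein needed to place the channel. It had counts in 3 of the 12 libraries: 1.81 CPM (33 counts) in GFP day 7 replicate 2, 11.9 CPM (203 counts) in replicate 3, and 0.109 CPM (2 counts) in Olig1 day 7 replicate 1. With all 6 day 14 libraries at 0, Lrit3 was not detectable there at this depth in either arm.

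Neither the regulator Rgs11 nor the G protein subunit Gng13 passed the test, though the arms of both were apart on each day. Rgs11 (ENSMUSG00000024186, chromosome 17, 26202951 to 26211324, plus strand), which speeds the shutdown of Go, stood at 58.0, 36.8 and 56.3 CPM with GFP at day 7 and at 10.9, 3.51 and 27.8 CPM with Olig1. The values at day 14 were 215, 94.7 and 136 CPM with GFP and 63.8, 20.4 and 63.1 CPM with Olig1. Each day's arms were apart, yet Olig1 day 14 replicates 1 and 3 were above all 3 GFP day 7 libraries. Its log2 fold changes were -1.81 ± 0.72 at day 7 (edgeR adjusted p = 0.288) and -1.63 ± 0.71 at day 14 (adjusted p = 0.447), and -1.72 ± 0.51 over both days (adjusted p = 0.126). Rgs11 shares 138 exon bases with Arhgdig on the opposite strand, which reached 352 CPM, and the strand setting of the counting is not given in the sources used here, so reads of that stretch cannot be assigned with certainty.

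Gng13 (ENSMUSG00000025739, chromosome 17, 25717171 to 25719406, plus strand), the gamma subunit paired with Gnb3 in these cells, stood at 109, 62.9 and 98.3 CPM with GFP at day 7 and at 2.12, 2.07 and 57.2 CPM with Olig1. Day 14 libraries held 247, 131 and 59.6 CPM with GFP and 20.8, 7.33 and 28.0 CPM with Olig1. Olig1 day 7 replicate 3 was the highest Olig1 library and came close to the lowest GFP libraries. The log2 fold change at day 7 was -2.16 ± 1.02 (edgeR adjusted p = 0.360) and, without that library, -5.00 ± 0.96 (adjusted p = 0.0410). At day 14 it was -2.89 ± 1.05 (adjusted p = 0.438) and over both days -2.53 ± 0.73 (adjusted p = 0.119). Gng13 shares 399 exon bases with Chtf18 on the opposite strand, which had 47 counts in all 12 libraries together.

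Of the 3 markers, Pcp2 and Cabp5 were low in all Olig1 pools and Prkca was not. Pcp2 (ENSMUSG00000004630, chromosome 8, 3623371 to 3625545, minus strand), a modulator of Go, stood at 517, 214 and 252 CPM with GFP at day 7 and at 3.37, 3.59 and 73.4 CPM with Olig1. By day 14 the levels were 1978, 1192 and 425 CPM with GFP and 95.0, 1.91 and 32.2 CPM with Olig1. Pcp2 was the gene of the set with the highest TPM in all 6 GFP libraries. The log2 fold change was -3.61 ± 1.27 at day 7 (edgeR adjusted p = 0.268), -4.72 ± 1.34 at day 14 (adjusted p = 0.438) and -4.17 ± 0.92 over both days (adjusted p = 0.0654). Without Olig1 day 7 replicate 3 the value over both days was -5.42 and passed the test (adjusted p = 0.0128). Pcp2 shares 941 exon bases with Pet100 on the opposite strand, which reached 48.3 CPM, so part of the low Pcp2 values in Olig1 pools cannot be assigned with certainty.

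Cabp5 (ENSMUSG00000005649, chromosome 7, 13398132 to 13408887, plus strand), a calcium-binding protein, stood at 237, 284 and 334 CPM with GFP at day 7 and at 2.83, 17.8 and 84.2 CPM with Olig1. The values at day 14 were 845, 575 and 281 CPM with GFP and 127, 35.1 and 25.7 CPM with Olig1. All Olig1 libraries were below all GFP libraries. The log2 fold change was -2.94 ± 0.90 at day 7 (edgeR adjusted p = 0.220) and -3.13 ± 0.91 at day 14 (adjusted p = 0.438). Over both days Cabp5 fell by 3.03 ± 0.64 on the log2 scale (adjusted p = 0.0424), a call that was lost in 13 of 21 alternatives, with adjusted p up to 0.138.

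Prkca (ENSMUSG00000050965, chromosome 11, 107933387 to 108343928, minus strand), protein kinase C alpha, stood at 140, 26.9 and 95.7 CPM with GFP at day 7 and at 111, 29.4 and 36.8 CPM with Olig1, which overlap throughout. Day 14 libraries held 401, 167 and 111 CPM with GFP and 13.1, 32.1 and 18.2 CPM with Olig1, which do not overlap. The log2 fold change was -0.40 ± 0.69 at day 7 (edgeR adjusted p = 0.881) and -3.35 ± 0.75 at day 14 (adjusted p = 0.329), and over both days -1.87 ± 0.50 (adjusted p = 0.103). The difference of the Olig1 effect between the days was -2.95 ± 0.99, with an unadjusted p of 0.0094 and an adjusted p of 0.356, so a difference between days was not shown. Prkca is also expressed outside bipolar cells. The plots of CPM by group for 6 of the genes show these patterns library by library.

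**Figure D3:**
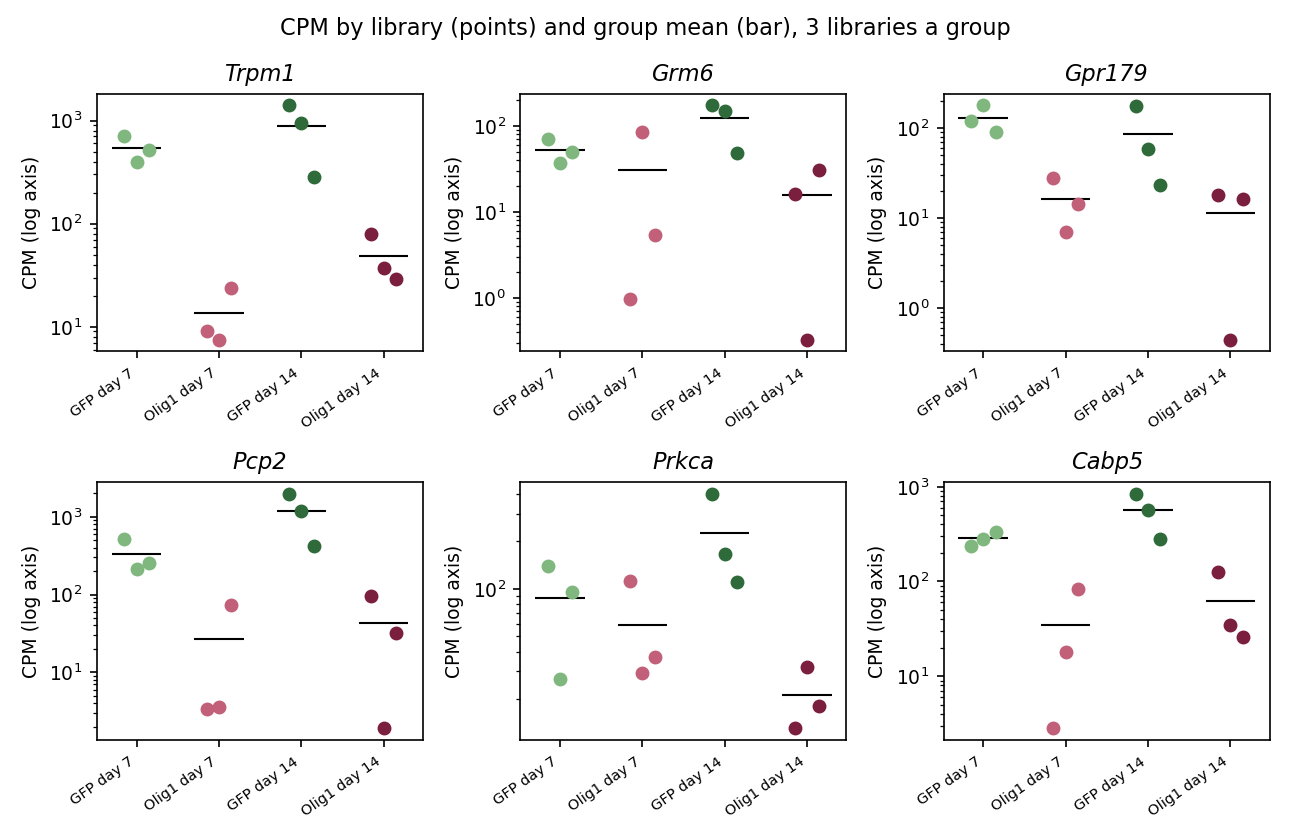
CPM on log axes (a separate scale per panel) for Trpm1, Grm6, Gpr179, Pcp2, Prkca and Cabp5, with 1 point per library and a bar at the mean of 3 libraries. The Trpm1 and Cabp5 points of the GFP groups all lie above those of the Olig1 groups, whereas Grm6 and Prkca overlap at day 7.

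The make-up of the transcripts within the set also differed from pool to pool. In the GFP libraries Pcp2 made up 28.4% to 54.8% of the summed TPM of the 10 genes, Cabp5 15.1% to 29.9%, Gng13 14.3% to 26.3%, Trpm1 3.88% to 7.68% and Grm6 1.62% to 2.29%. By median TPM the order in GFP pools was Pcp2 (568), Gng13 (344), Cabp5 (302) and Trpm1 (107), followed by Rgs11 (45.2), Prkca (33.7), Grm6 (28.4), Gpr179 (28.4) and Nyx (4.06), with Lrit3 at 0. Both the shares and this order depend on the annotated exon lengths, such as 773 bases for Gng13, 1828 for Pcp2 and 14746 for Trpm1. The ranges over the 6 libraries overlap at every step of this order, but ranges do not show the order within a library. Within each of the 6, Pcp2 led, and Trpm1 stood at 0.173 to 0.510 times the TPM of Cabp5. Some neighbours changed places between libraries. In GFP day 14 replicate 3, for instance, Rgs11 (55.5 TPM) was above Trpm1 (32.9 TPM). In the Olig1 libraries the leading gene was Prkca, Grm6 and Gng13 in day 7 replicates 1, 2 and 3, and Pcp2, Cabp5 and Gng13 in day 14 replicates 1, 2 and 3. Prkca reached 50.7% in Olig1 day 7 replicate 1, and Grm6 reached 47.7% in replicate 2. The 6 control pools thus shared their leading gene, and the 6 Olig1 pools were led by 5 different genes in all, at sums that were much lower. The control pools were less alike in some smaller shares. In the GFP libraries Gpr179 made up 0.495% to 5.005% of the summed TPM and Rgs11 1.89% to 6.54%.

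**Figure D4:**
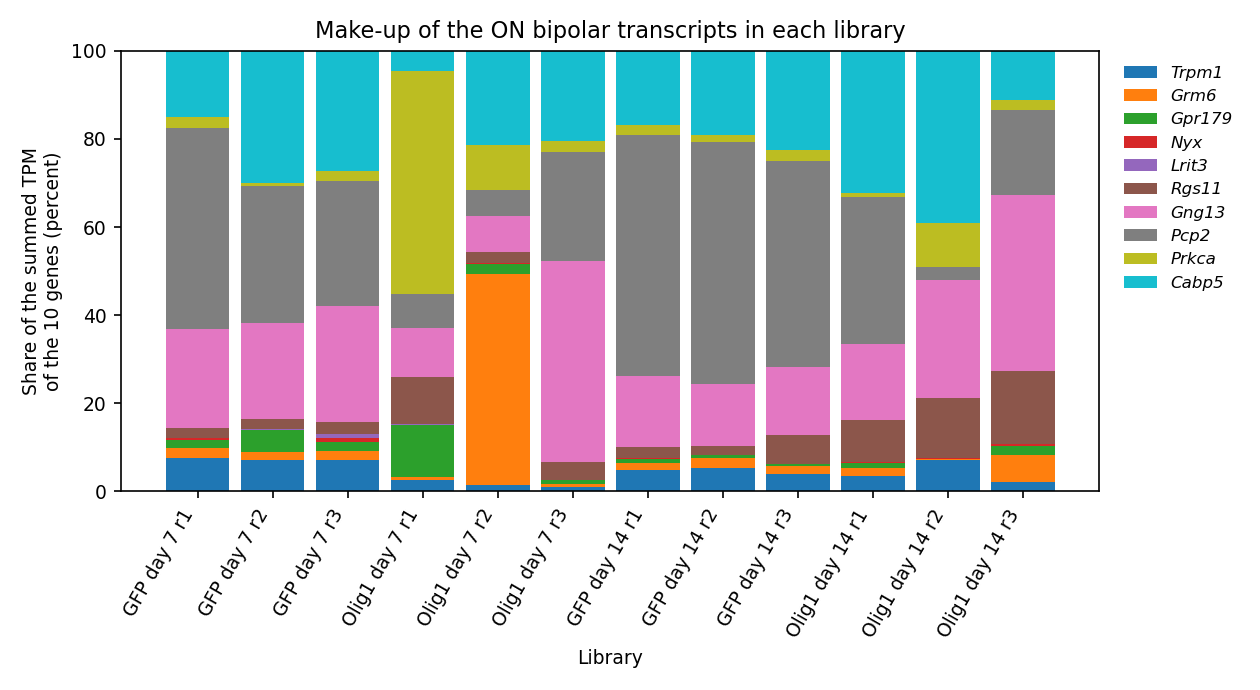
Share of each of the 10 genes in their summed TPM (vertical axis, percent) for the 12 libraries (bars). Pcp2 leads in the 6 GFP bars, while the Olig1 bars are led by Prkca (50.7% in day 7 replicate 1), Grm6 (47.7% in day 7 replicate 2), Gng13, Pcp2 or Cabp5.

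No gene of the set passed the test between the days in either arm: edgeR called 0 of 9, with 0% of all genes called in the GFP arm and 0.0334% in the Olig1 arm, and DESeq2 and voom also called 0. At an unadjusted p under 0.05, 2 genes were higher at day 14 with GFP (Rgs11 and Prkca, against 4.5% of all genes), and 2 with Olig1 (Trpm1 and Rgs11, against 4.26%). With GFP, Trpm1 was 0.93 ± 0.56 higher at day 14 on the log2 scale (edgeR adjusted p = 0.646), Pcp2 2.11 ± 1.20 (adjusted p = 0.616) and Rgs11 1.90 ± 0.72 (adjusted p = 0.442). Rgs11 was the gene of the set whose GFP libraries did not overlap between the days, which held in that direction for 3.96% of all genes. With Olig1, Trpm1 was 2.03 ± 0.57 higher at day 14, with an unadjusted p of 0.0028 and an adjusted p of 0.371, and its groups did not overlap, which held in that direction for 5.55% of all genes. Rgs11 was 2.08 ± 0.73 higher (adjusted p = 0.371). The change of the Olig1 effect on Trpm1 between the days was 1.11 ± 0.78 (adjusted p = 0.694). By edgeR none of the 14985 genes (0%) passed the test of this difference. At an unadjusted p under 0.05, 5.33% of all genes had a lower effect at day 14 than at day 7, Prkca being the 1 gene of the set among them, and 4.57% a higher one.

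The 14 other genes of the synapse were taken from a list of proteins that work beside the cascade. At day 7, 9 of the 14 were below 0 and 5 above, with a median of -1.72, and at day 14 12 were below 0, with a median of -1.48. Of all genes, 50.7% and 46.1% were below 0 at these days. None was called by edgeR at either day, where 0.227% and 0.04% of all genes were called. At an unadjusted p under 0.05, 4 were lower and 1 higher at day 7 (against 5% and 8.95% of all genes), and 1 was lower at day 14 (against 4.86%). Over both days Gnb3 alone was called, where 0.274% of all genes were called lower. Gnb3, the beta subunit that pairs with Gng13 and is also used by cones, stood at 1768, 995 and 846 CPM with GFP at day 7 and at 9.24, 10.9 and 85.4 CPM with Olig1. By day 14 the levels were 5578, 3766 and 1100 CPM with GFP and 130, 3.99 and 229 CPM with Olig1. These arms did not overlap, and over both days its log2 fold change was -4.91 ± 0.85 (edgeR adjusted p = 0.0291). Its place in the Olig1 pools differed from that of Trpm1, being lowest in day 14 replicate 2. The RGS partner Rgs7, which shares the work of Rgs11 and is broadly neuronal, averaged 10.6 ± 8.48 CPM in GFP day 7 and 54.6 ± 30.6 CPM in Olig1 day 7 libraries (SD, n = 3), and 28.8 ± 12.3 beside 29.7 ± 8.99 CPM a week later, with overlap on both days and no call. Gnao1, the alpha subunit of Go, which most neurons express, averaged 169 ± 59.0 CPM (GFP) and 171 ± 119 CPM (Olig1) at day 7, and 248 ± 170 CPM (GFP) and 121 ± 91.8 CPM (Olig1) at day 14. At day 7 all Olig1 libraries were below all GFP libraries in 4 of the 14 (Gnb3, Rgs9bp, Lrit2 and Cacna2d4), against 9.01% of all genes. The same held at day 14 for 3 (Gnb3, Gnb5 and Lrit1), against 4.12% of all genes. Of the calcium channel genes on the photoreceptor side, Cacna2d4 thus had separate arms at day 7 and Cacna1f at neither day.

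Transcription factors and general markers of bipolar cells (16 genes) had a median log2 fold change of -3.27 at day 7 and -2.46 at day 14, with 13 of 16 below 0 at each (50.7% and 46.1% of all genes). None was called by edgeR at either day (0.227% and 0.04% of all genes were). At an unadjusted p under 0.05, 5 and 6 were lower (5% and 4.86% of all genes). Sebox alone was called over both days, where 0.274% of all genes were called lower. Sebox, a homeobox gene found in bipolar cells, stood at 135, 60.5 and 17.4 CPM with GFP at day 7 and at 0.544, 0.319 and 3.99 CPM with Olig1. The values at day 14 were 1764, 405 and 77.5 CPM with GFP and 3.73, 0.326 and 0.106 CPM with Olig1, and its log2 fold change over both days was -7.17 ± 1.13 (edgeR adjusted p = 0.0135).

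Markers of other retinal cells moved with the same arms in part. Rod markers (15 genes) summed to 65268, 14497 and 63787 CPM with GFP and 1202, 1495 and 1659 CPM with Olig1 at day 7, so rod and ON bipolar transcripts were both low in each Olig1 day 7 library. At day 14 the rod sums were 6106, 72837 and 26412 CPM with GFP and 10973, 1902 and 18529 CPM with Olig1. These overlap, while the ON bipolar sums of those libraries do not. Gene by gene, all 15 rod genes were below 0 at both days (50.7% and 46.1% of all genes). Their median log2 fold change was -4.65 at day 7 and -1.65 at day 14, beside -2.94 and -2.93 for the ON bipolar genes. Over both days the medians were -3.24 and -2.89. By edgeR, 2 rod genes were called lower at day 7, 0 at day 14 and 5 over both days (0.0868%, 0.02% and 0.274% of all genes). The Müller glia sums, led by Apoe, overlap at both days, but gene by gene 9 of the 11 Müller genes were below 0 at day 7 with a median log2 fold change of -1.63. Of these, 7 were lower at an unadjusted p under 0.05 (5% of all genes) and edgeR called 0 (0.227% of all genes). At day 14 the median was 0.37 with 3 below 0. GFP day 14 replicate 1, with the lowest rod sum of its arm, held the most Trpm1 of all libraries. It was also the library with the fewest genes detected (10129). Olig1 day 14 replicate 3, with the highest rod sum of its arm, held 29.3 CPM of Trpm1. Ganglion cell sums were higher in each Olig1 day 7 library (2467 to 4739 CPM) than in any GFP library. At day 14 they were 175, 3371 and 163 CPM with Olig1 beside 236, 147 and 89.8 CPM with GFP. Amacrine markers (12 genes) summed to 308 to 855 CPM with GFP and 604 to 3228 CPM with Olig1, and cone markers (9 genes) to 9.14 to 1844 and 12.4 to 532 CPM. Without the 4 libraries rich in microglia markers, a comparison chosen after seeing the data that leaves GFP day 14 with 1 library, 4 genes of the set were called over both days in place of 2. In that comparison 349 genes were called in all in place of 98, and the median log2 fold change of all genes was 1.20 in place of 0.06. The part of the mix of cells in the ON bipolar differences was not tested.

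**Figure D5:**
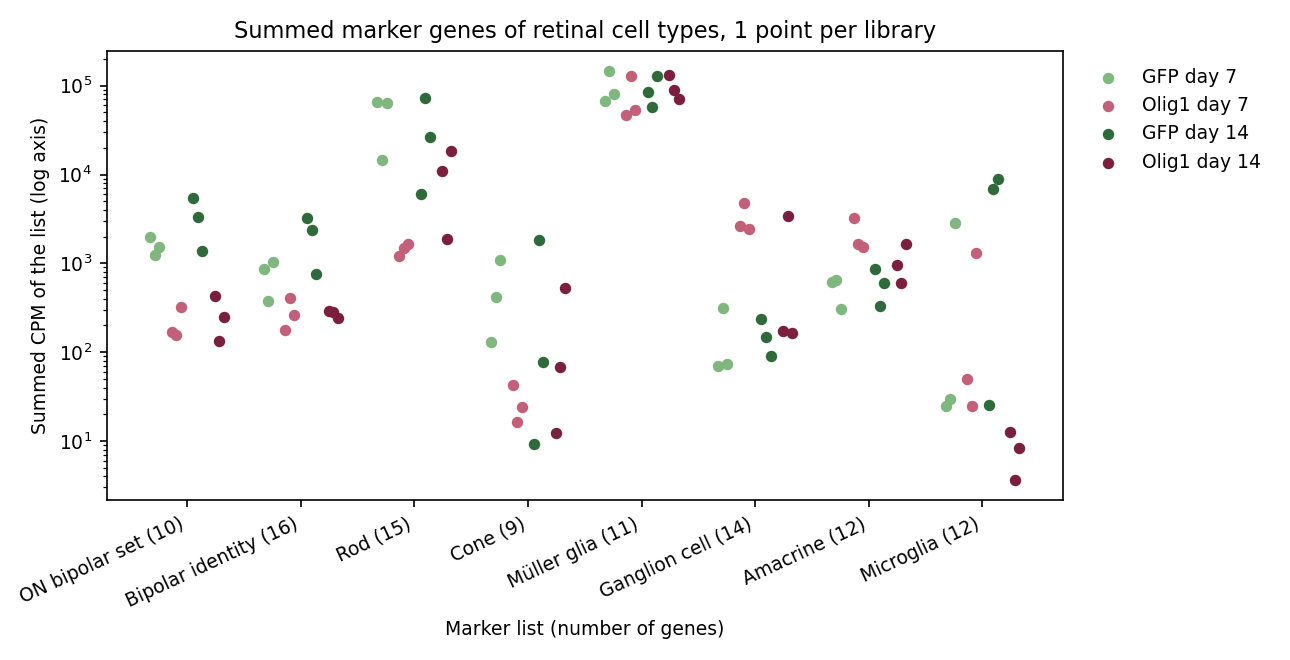
Summed CPM of marker lists (log axis, number of genes in brackets), with 1 point per library coloured by group. The ON bipolar sums of the 6 Olig1 libraries (135 to 433 CPM) lie below those of the 6 GFP libraries (1241 to 5457 CPM), whereas the Müller glia sums, of which Apoe is the largest part, overlap and the rod sums overlap at day 14.

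Outside the set, the 5 genes whose log2(CPM + 1) followed Trpm1 most closely over the 12 libraries were Gzmm (Pearson r = 0.962), Ptprr (0.947), Slc44a1 (0.936), Slc14a1 (0.929) and Vamp8 (0.924). Predicted gene models were left out of this ranking. Gzmm, a granzyme, stood at 77.9 ± 65.2 CPM with GFP and 1.97 ± 1.42 with Olig1 at day 7 (SD, n = 3), while the day 14 means were 89.7 ± 67.8 and 7.53 ± 3.89 CPM, and its log2 fold change over both days was -4.36 ± 0.67 (edgeR adjusted p = 0.00939). Within the set the coefficients with Trpm1 were 0.929 for Cabp5, 0.914 for Pcp2, 0.894 for Gng13, 0.808 for Rgs11, 0.736 for Gpr179, 0.672 for Nyx, 0.650 for Grm6 and 0.607 for Prkca. The receptor Grm6 thus ranked below the markers Cabp5 and Pcp2 in its likeness to the channel. These coefficients are descriptions over 12 libraries that share 4 groups and a large gap between the arms, and the list depends on the measure: 4 of the 5 genes stayed with a pseudocount of 0.1, and 1 of the 5 with Spearman's rank coefficient.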

How the data were processed

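The authors deposited raw counts of reads per Ensembl gene. The submitters' processing notes name HISAT2, HTSeq, FastQC and the mm10 build. Tool versions, the gene annotation and the strandedness of the counting are not stated there or in the labels. The series table was used, since the files of 4 libraries ended early (270 to 2853 genes missing, none of the 10), and 0 shared values differed. Symbols, coordinates and exon lengths came from GENCODE M21, which named 54165 genes.

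Counts were tested with edgeR 4.0.16 (robust quasi-likelihood, TMM, filterByExpr at 10 counts; R 4.3.3) in 1 fit of 12 libraries and 4 groups. Benjamini-Hochberg adjustment ran over 14985 genes, with calls at 0.05. SE is the size of the log2 fold change over the root of F. The common biological coefficient of variation was 1.35. The test was checked on simulated data. CPM used library totals, and TPM the union exon length.

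Alternatives were DESeq2 size factors, DESeq2 1.42.0, limma 3.58.1 voom with sample weights, other filters, a fit of the compared groups alone, a replicate block and leaving out each library. Leaving out the 4 microglia-rich libraries, leaving out GFP day 14 replicates 1 and 3, and dropping TMM were added after seeing the data. The labels speak of several batches without assigning libraries, so batch entered no test, and spike-in RNA was not analysed here. The members and lists were chosen with earlier results of these data known. Genes named were the 10, members of the 2 related lists, the 5 most like Trpm1, leading or absent markers and overlapping genes; Pou4f3 was named after its values were seen. The values of 1 listed gene are not reported here. Tables were handled with pandas 2.3.3 under Python 3.11.15 and plotted with matplotlib 3.10.9.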

Additional observations from a re-analysis of the deposited data

How the results depend on the processing

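Of the 10 genes, 1 was called at day 7, 1 at day 14 and 2 over both days, and 0 in the other 3 comparisons under every alternative run. At day 7 the DESeq2 Wald test called 3 (930 of all genes, 34 as reported) and voom 2 (430 of all genes), and leaving out 1 library gave 1 to 2 (2 without Olig1 replicate 3). At day 14 DESeq2 called 4 (743 of all genes, 6 as reported), voom 2 (55) and no filter 2 (23), and 0 were called with at least 10 counts in at least 6 libraries, with only the compared groups fitted, or without both GFP replicates 1 and 3. Leaving out 1 library at day 14 gave 0 to 1. Over both days DESeq2 called 7 (1136 of all genes, 98 as reported), voom 4 (460), no filter 5 (401) and DESeq2 size factors 1. Leaving out 1 library gave 1 to 4 (4 without Olig1 day 7 replicate 3), the microglia-rich libraries 4, and both GFP day 14 libraries 1.

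With a replicate block 0 genes of the set were called at day 14 and 1 over both days. Deviations of same-numbered libraries correlated at -0.07 to 0.04 (18 pairs), so the numbers were not taken to pair libraries.

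The Grm6 log2 fold change at day 7 (-0.04) became 0.28 with DESeq2 size factors and with the DESeq2 Wald test, 0.11 with only the compared groups, 0.42 without the microglia-rich libraries, and ranged from -4.13 to 0.53 when 1 library was left out (0.14 without GFP replicate 1, 0.53 and 0.49 without Olig1 replicates 1 and 3). Prkca at day 7 (-0.40) ranged from -0.98 to 0.057 when 1 library was left out (0.057 without GFP replicate 1), and the Grm6 difference between days from -3.82 to 1.20 (1.20 without Olig1 day 7 replicate 2). The causes were not tested. Of the other log2 fold changes given for genes of the set, none changed sign. Genes outside the set, such as Gnb3, Sebox and Gzmm, were not followed through the alternatives. Leaving out 1 library, all genes called ranged from 1 to 58 at day 7, 0 to 6 at day 14 and 26 to 133 over both days. Without the microglia-rich libraries the median of all genes at day 14 was 1.53, with 1 GFP library left and assumed to vary like the other groups. Scaling by library totals alone moved the median of all genes between the days from -0.14 to -0.46 with GFP and from -0.01 to -0.22 with Olig1. Pools of few cells and 3 libraries a group limit the precision, and low genes such as Nyx and Lrit3 rest on few counts.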
